A study of Danio rerio with 2 samples.

Results

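The cells described here are 194 of 2081 kept cells with transcripts of posterior body genes, taken from GFP-sorted zebrafish embryos. Members were chosen by the readout itself. A cell was kept with at least 2500 UMIs (unique molecular identifiers, each standing for 1 captured transcript), more than 200 but no more than 3500 genes, and a mitochondrial share of counts up to 5%. A kept cell became a member with a UMI of at least 2 of the 6 gate genes cdx4, hoxa11b, hoxb7a, her7, tbx16 and hoxa13b, and with tal1 below 2000 CPM (the counts of a gene per 1000000 counts). The heterozygous library held 151 members among 1608 kept cells and the homozygous library 43 among 473.

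Each genotype was represented by 1 droplet library made from GFP-positive cells of pooled, dissociated embryos at the 20-somite stage. All embryos carried UAS:GFP and etv2ci32Gt, an insertion in etv2 that drives Gal4 and so labels cells in which the locus is or was active. Heterozygous embryos keep 1 functional copy of etv2, a transcription factor required for the formation of endothelial and some blood cells, and homozygous embryos have none. The label reports activity of the trapped locus rather than a cell type, and GFP protein can outlast transcription. With 1 library per genotype there was no replicate and no test between genotypes. Intervals are 95% and cover counting error only.

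The zebrafish tailbud holds progenitors that leave it to form presomitic mesoderm, from which somites bud at intervals set by a clock of oscillating her genes. T-box factors such as Tbx16 and the basic helix-loop-helix factor Msgn1 drive cells from the progenitor state into presomitic mesoderm, under Wnt and FGF signals. Cdx factors switch on posterior Hox genes, and in lateral mesoderm of the trunk the same factors are needed for blood formation, so cdx4 and posterior Hox transcripts are not limited to the tailbud.

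The gate was carried mainly by 3 genes. hoxb7a, a trunk Hox gene, had a UMI in 145 of 151 heterozygous and 41 of 43 homozygous members, at 209 and 322 CPM of the summed counts against 25.8 and 18.3 CPM in other kept cells. cdx4 was seen in 99 and 31 members, at 197 and 364 CPM against 8.10 and 3.03 CPM in other cells, and hoxa11b in 88 and 34 members, at 121 and 197 CPM. These levels follow from the choice of cells. The genes most particular to presomitic mesoderm were rare: her7, a segmentation clock gene, was seen in 7 heterozygous and 11 homozygous members and tbx16 in 15 and 11. hoxa13b, a gene of the tail end, was found in 0 heterozygous members, where a floor of 3 counts allows up to 1.99% of members with a UMI, and in 3 homozygous members. In the heterozygous library the pair of cdx4 and hoxb7a alone selected 58 members and that of hoxa11b and hoxb7a alone 44.

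At the edge of the rule, 110 heterozygous and 18 homozygous members held exactly 2 gate genes, while 188 and 78 kept cells held exactly 1. The tal1 limit kept out 35 heterozygous and 3 homozygous cells that held 2 or more gate genes. The nearest member to the limit had 1937 CPM of tal1 and the nearest cell outside 2037 CPM in the heterozygous library, against 1045 and 2095 CPM in the homozygous one. Members were deeper than other kept cells, with a median of 12355 against 9587 UMIs for heterozygous cells and 14092 against 12686 UMIs for homozygous ones. No kept barcode occurred in both libraries, and no cells were removed as doublets. The doublet caller Scrublet marked 5 of 1608 heterozygous and 1 of 473 homozygous kept cells, 3 and 0 of them members. Shares of 0.311% and 0.211% are too low for the caller to have worked, so droplets with more than 1 cell were not tested for beyond this.

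Many members of both libraries had markers of endothelial, erythroid or other cell classes, and the endothelial-type share was greater in the heterozygous library. The lists held no tailbud or presomitic class, so such cells could only be unassigned or fall in another class. By marker lists of 10 cell classes, 55 heterozygous members were endothelial-type, 23 erythroid-type, 11 of the head and lateral mesenchyme type, 8 epidermal-type, 7 neural-type, 1 macrophage-type and 1 skeletal muscle-type, and 45 were assigned to none. Among the homozygous members 14 were mesenchyme-type, 11 erythroid-type and 15 unassigned, and 1 each was endothelial-type, skeletal muscle-type and notochord-type. The mesenchyme list shares foxc1a and foxc1b with the list of presomitic genes and osr1 with that of intermediate mesoderm. It also holds cxcl12a, which the paper lists as a tailbud marker. Mesenchyme-type and unassigned members can therefore be tailbud cells. The members are therefore called by their rule, as cells with transcripts of posterior genes. Depth within a class was not always higher in members. The median was 11894 against 6365 UMIs among heterozygous and 14582 against 4760 UMIs among homozygous unassigned cells, but 10913 against 10816 UMIs among heterozygous mesenchyme-type cells and 9406 against 10227 UMIs among neural-type ones.

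Over all heterozygous kept cells 9.39% met the rule (8.01 to 10.9%). Of the classes only the macrophage-type had an interval that did not overlap this one. In the heterozygous library 10.7% of endothelial-type cells met the rule (55 of 515, exact interval 8.15 to 13.7%) and 7.57% of erythroid-type cells (23 of 304, 4.86 to 11.1%). These denominators include any cells at or over the tal1 limit, which could not be members and so lower the shares. Of the 460 endothelial-type cells outside the gate, 299 were below that limit. Neural-type cells met the rule in 7 of 76, epidermal-type cells in 8 of 57 and mesenchyme-type cells in 11 of 108. Macrophage-type cells, which are expected to lack these genes, met it in 1 of 190 (0.526%, 0.0133 to 2.90%) at a median depth of 11695 UMIs in those outside the gate. Of all homozygous kept cells 9.09% met the rule, with 11 of 166 erythroid-type and 14 of 104 mesenchyme-type cells. Neural-type cells there met it in 0 of 26 and epidermal-type cells in 0 of 20. A floor of 3 counts allows up to 11.5% and 15% for these 0 counts. Free RNA, estimated from hemoglobin counts in neural- and epidermal-type cells, made up 2.56% of heterozygous and 1.79% of homozygous UMIs per cell.

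Clustering of all kept cells without the gate genes and tal1 placed the members in 12 of 18 clusters. Cluster 16 was the one most made of members: 43 of its 60 cells (71.7%), 21 heterozygous and 22 homozygous. Its leading genes were hoxd12a, UTS2R, msgn1, hoxc10a, hoxc11a, mnx1, hoxa9b and ta, all left out of the rule, and it held 23 of the 33 members with a tbx16 or her7 UMI. Cluster 6 held the most members, 63 of its 211 cells, and most of its cells were erythroid-type or unassigned. Among its named genes it was led by fgf24, ms4a17a.10, pmaip1, rab40b, tmsb2, mdm2, hoxd9a and map2. Cluster 4, 79 of whose 101 cells were endothelial-type, held 30 members, of which 29 were heterozygous.

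**Figure D1:**
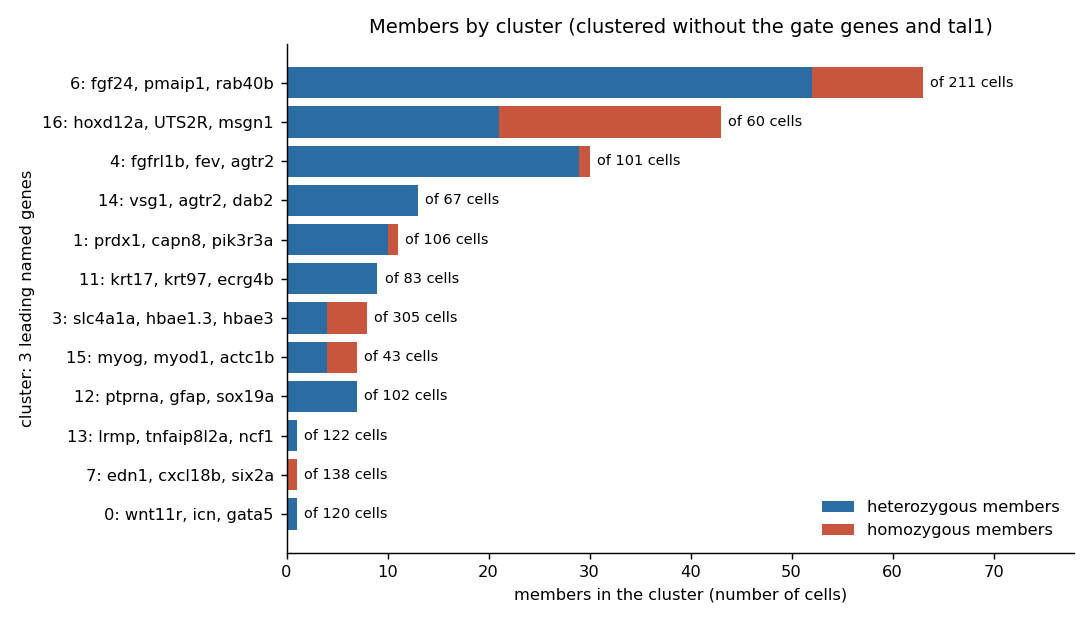
Number of members in each of the 12 clusters that held any, with heterozygous members in blue and homozygous members in red, and the size of the cluster beside each bar. Members were spread from cluster 6 with 63 to clusters with 1, and cluster 16, led by hoxd12a and msgn1, had 43 members among 60 cells.

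Under the rule of 2 gate genes, members made up similar shares of both libraries. They were 9.39% of heterozygous kept cells (exact interval 8.01 to 10.9%) and 9.09% of homozygous ones (6.66 to 12.1%), a difference of -0.30 percentage points (-3.04 to 2.92). When every cell was thinned to 5000 UMIs before the rule was applied, 77 of 1289 heterozygous cells (5.97%) and 26 of 397 homozygous cells (6.55%) met it. With 3 or more gate genes required, 41 of 1608 heterozygous and 25 of 473 homozygous cells remained, so the similarity depends on the number of genes required. Members with a UMI of tbx16 or her7 were 18 heterozygous cells (1.12% of kept cells, 0.665 to 1.76%) and 15 homozygous cells (3.17% of kept cells, 1.79 to 5.18%). The difference was 2.05 points (0.655 to 4.09). After thinning the shares were 0.931% and 2.52%, a difference of 1.59 points (0.251 to 3.68). The sort removes most other embryonic cells, and the homozygous library held 5 endothelial-type and 2 macrophage-type kept cells against 515 and 190, so shares of the sorted cells cannot be told apart from loss of other cells. Among kept cells outside the endothelial-type, the macrophage-type and those with high tal1, all members were 12.3% of heterozygous and 9.19% of homozygous cells. On this denominator, chosen after seeing the data, those with tbx16 or her7 were 17 of 770 (2.21%, 1.29 to 3.51%) and 14 of 457 (3.06%, 1.68 to 5.09%), and the interval of their difference, 0.856 points (-0.934 to 3.03), included 0.

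Hox genes outside the gate were mostly higher in members of both libraries, which the rule's own Hox genes and cdx4 favour. All ratios below are quotients of CPM from summed counts, calculated for genes with at least 20 counts over both groups, and a gene is called higher or lower at 2-fold or more. In the heterozygous library 575 of 10856 genes (5.3%) were higher and 1367 (12.6%) lower in members than in other kept cells, and in the homozygous library 675 of 8356 genes (8.08%) were higher and 1350 (16.2%) lower. When each gene's single richest member was left out, which takes the largest count from the side of the members only, 335 and 331 genes were higher and 2211 and 2422 lower. The files held 45 Hox genes outside the gate, of which 29 reached the count minimum in the heterozygous library. Of these 25 were higher and 1 lower, with a median ratio of 7.32 against 0.96 over all genes. In the homozygous library 22 reached the minimum and 22 were higher, with a median of 12.5 against 0.985.

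Ratios were highest in the posterior Hox groups. Paralog groups 9 to 13, active at the posterior end of the body, had a median ratio of 11.1 (heterozygous library) and 23.1 (homozygous library), with 12 of 12 measured genes higher in each. Groups 5 to 8 had medians of 6.6 and 6.90. Groups 1 to 4, active toward the head, had 5 of 9 genes higher in the heterozygous library with a median of 2.31, and 5 of 5 in the homozygous one with a median of 7.99. In the homozygous library the median of groups 1 to 4 thus stood above that of groups 5 to 8, against the order along the clusters. The order was not kept within groups 9 to 13 either, where group 13 had 14.7 and group 11 had 33.5. hoxd12a stood at 20.8 CPM in heterozygous members against 1.07 CPM in other cells (ratio 19.5, 10.7 to 37.2) with 104 against 3.21 CPM for homozygous cells (32.6, 19.2 to 58.1). hoxd10a had 73.2 against 5.29 CPM (13.8, 10.5 to 18.5) and 153 against 5.88 CPM (26.0, 17.4 to 39.8). hoxa9b had ratios of 14.4 and 46.7. Group 3 did not follow its place in the order, at 6.52 (5.52 to 7.69) and 11.2 (8.62 to 14.6), mainly through hoxc3a, at 92.5 against 9.03 CPM in the heterozygous library. hoxb2a was the Hox gene at the lower end, with 3 counts in heterozygous members and 48 in other cells. Hox genes are expressed together along the axis, so the rule's own hoxb7a and hoxa11b favour cells with neighbouring Hox genes.

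**Figure D2:**
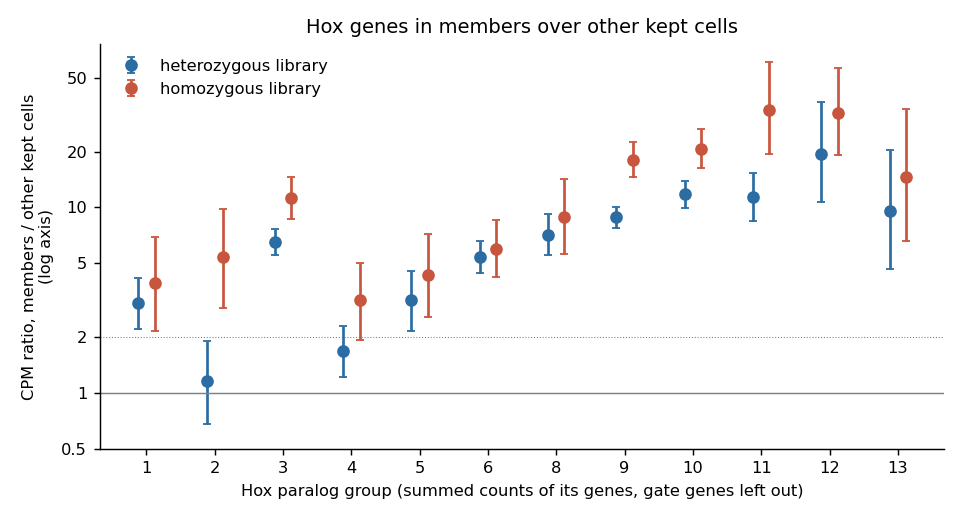
Ratio of summed Hox CPM in members over other kept cells for each paralog group on a log axis, gate genes left out, with exact 95% counting intervals (heterozygous in blue, homozygous in red, dotted line at 2). Ratios ran from 1.16 in group 2 to 19.5 in group 12 in the heterozygous library and from 3.15 in group 4 to 33.5 in group 11 in the homozygous one.

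Some genes of presomitic mesoderm were higher in members, which the rule's own her7 and tbx16 favour. Nearly all msgn1 and her1 counts of members lay in cells with a UMI of either gene, as given below. Of 25 measured genes of that list 7 were higher and 1 lower in the heterozygous library (median 1.35), and 15 were higher and 2 lower in the homozygous one (median 2.21). msgn1, which drives presomitic differentiation, was at 56.9 against 2.34 CPM (24.3, 16.5 to 36.6) and at 157 against 6.41 CPM (24.5, 16.6 to 36.9). These msgn1 counts came from few cells: 14 heterozygous and 7 homozygous members had a UMI, and a single member held 48 of 112 and 57 of 104 counts. her1, a core clock gene, had 14 counts in 4 heterozygous members and 0 in the 1457 other cells, and 35 counts in 8 homozygous members against 1 in other cells. The T-box gene tbx6l was 6.51-fold (3.61 to 11.6) and 9.26-fold (3.74 to 23.2) higher. hes6, which encodes a partner of clock proteins, was 2.24-fold (1.85 to 2.71) higher in heterozygous members and 12.9-fold (10.3 to 16.2) in homozygous ones. meox1, a homeobox gene of somites, was at 102 against 69.4 CPM and at 377 against 28.7 CPM, ratios of 1.46 (1.25 to 1.71) and 13.1 (10.7 to 16.1).

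Of the tailbud and neuromesodermal progenitor list, 8 of 20 measured genes were higher and 3 lower in the heterozygous library (median 1.49), and 9 of 13 were higher and 1 lower in the homozygous one (median 3.84). The rule's own cdx4 and tbx16 favour such genes too. ta, the zebrafish Brachyury gene needed for notochord and posterior mesoderm, was at 15.8 against 2.54 CPM (6.20, 3.73 to 10.2) and at 60.5 against 1.60 CPM (37.7, 18.0 to 88.5). It was present in 19 of 151 and 12 of 43 members. The notochord-type homozygous member held 11 ta UMIs and an unassigned one 10. fzd10, a Wnt receptor, was 4.61-fold (2.37 to 8.72) and 10.0-fold (4.15 to 24.7) higher. The neuromesodermal partner of ta was near its floor: sox2 had 2 counts in heterozygous and 1 in homozygous members. sox3 was at 35.1 CPM in heterozygous members against 48.3 CPM outside, and at 10.6 CPM in homozygous members against 47.2 CPM. fgf8a, a ligand of the tailbud, had 0 counts in the members of either library, against 28 and 17 in other cells. The largest counts of the list belonged to apoeb, an apolipoprotein gene, at 963 against 378 CPM and at 1114 against 446 CPM.

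Of the targets and inhibitors of Wnt and FGF signalling, 4 of 17 measured genes were higher in heterozygous members and 1 lower (median 1.12), and in homozygous ones 9 were higher and 1 lower (median 2.26). The difference between libraries was not tested, and endothelial-type cells were 31.6% of heterozygous and 0.930% of homozygous other kept cells. sp5l, a Wnt target, was higher in both, 11.4-fold (4.79 to 28.4) and 25.5-fold (8.80 to 89.6), on 15 counts each. il17rd, an FGF inhibitor, was 2.90-fold (1.77 to 4.63) and 11.1-fold (5.54 to 22.8) higher. spry4 and dusp6, feedback inhibitors of FGF signalling, had ratios of 1.03 and 0.834 in the heterozygous library and 4.74 and 3.23 in the homozygous one.

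Among genes of other mesoderm, of the pronephros and intermediate mesoderm list 5 of 10 genes were higher and 2 lower in the heterozygous members and 4 of 7 higher in the homozygous ones. pax2a and pax8, which specify the kidney tubule, were 5.03-fold and 4.37-fold higher in heterozygous members and 8.49-fold and 7.36-fold in homozygous ones. hand2, of lateral mesoderm, was 5.11-fold (4.1 to 6.35) and 5.46-fold (4.52 to 6.58) higher, in 15 and 11 members. In the heterozygous members with tbx16 or her7 its ratio of 0.317 rests on 1 count, under the floor of 3 counts. osr2, an odd-skipped factor gene of mesoderm, had the highest ratio of all ranked genes in the heterozygous library, 31.9 (15.8 to 71.3), from 42 counts in 7 members. Of the myogenic factors, myf5 was 8.34-fold (5.34 to 13.1) and 17.0-fold (9.55 to 31.2) higher in 8 and 5 members, and myod1 5.38-fold and 3.49-fold in 4 and 5 members.

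Blood genes were lower and vascular genes mostly close to the other cells. Of 19 erythroid genes 11 were lower in heterozygous and 16 in homozygous members and 0 were higher. hbbe3, an embryonic beta-globin gene, was at 637 against 2430 CPM (0.262, 0.248 to 0.277) and at 1107 against 5330 CPM (0.208, 0.193 to 0.223), and free RNA holds hemoglobin transcripts too. Of 24 vascular genes 0 were higher and 4 lower in heterozygous members, and of 12 in the homozygous library 1 was higher and 2 lower. The tal1 limit keeps cells with much tal1 out of the members. etv2 was at 123 against 312 CPM (0.394, 0.345 to 0.448) but had a ratio of 1.09 when the tal1 limit was dropped, lmo2 at 1581 against 2237 CPM (0.707, 0.681 to 0.733) and fli1a at 182 against 180 CPM (1.01, 0.901 to 1.13). Replication and mitosis genes differed little, with 1 of 23 higher in heterozygous members and 1 lower in homozygous ones. The lowest ranked genes of the heterozygous library included ctslb, a cathepsin gene of the hatching gland, lcp1, cxcr3.2 and cyba. Of these, lcp1, cxcr3.2 and cyba are in the list of macrophage markers, whose summed level was 137 CPM in members and 686 CPM in other cells.

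**Figure D3:**
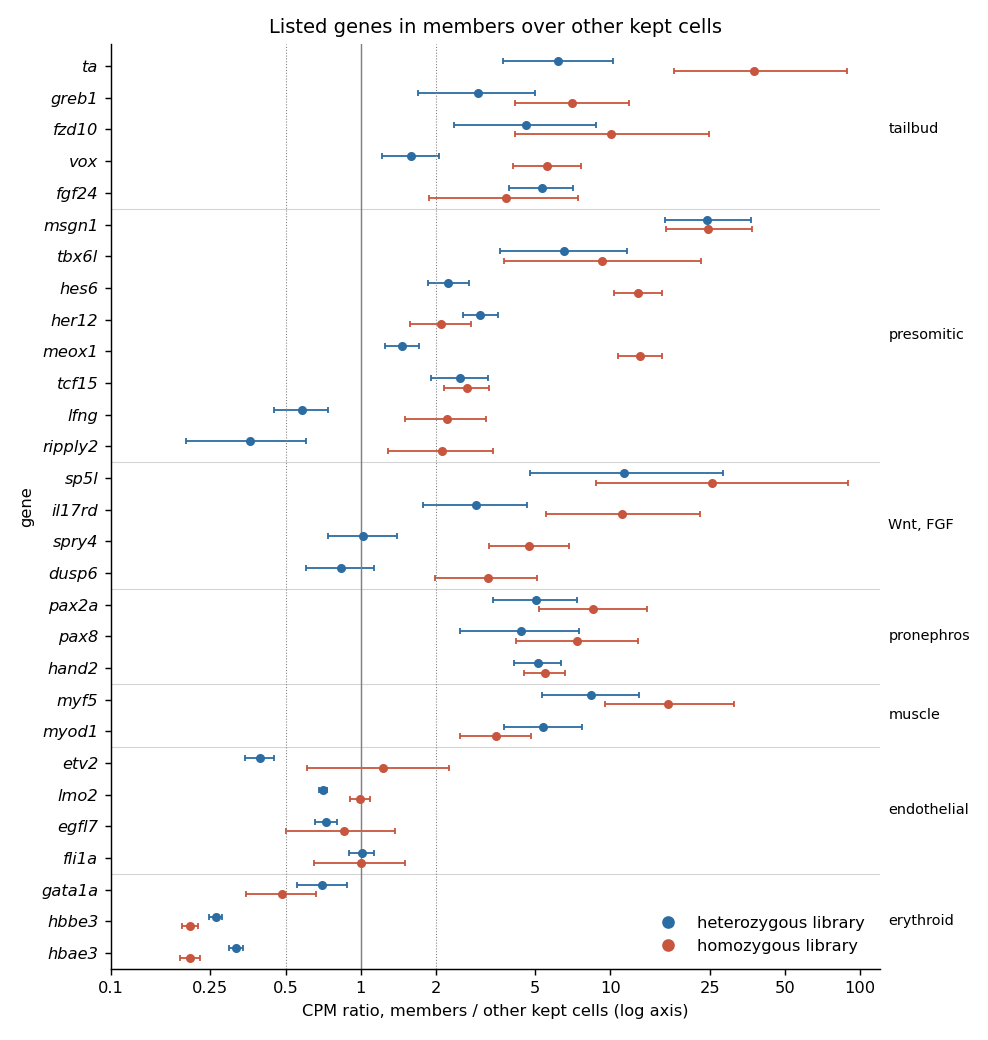
Ratio of CPM in members over other kept cells for 29 listed genes on a log axis, with exact 95% counting intervals (heterozygous in blue, homozygous in red, dotted lines at 0.5 and 2). msgn1 and ta lay at the right in both libraries, at 24.3 and 6.20 in the heterozygous one, while meox1 and hes6 differed between libraries and globin genes lay below 0.5.

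Members with a tbx16 or her7 UMI differed strongly from those without. Since these genes are part of the rule, the split is a description. Among heterozygous members 358 of 5131 genes (6.98%) were higher and 742 (14.5%) lower in the 18 cells with either gene than in the 133 with neither, and among homozygous members 245 of 2605 (9.4%) were higher and 199 (7.64%) lower in 15 against 28 cells. msgn1 was at 469 against 4.01 CPM (117, 54.8 to 298) for heterozygous cells and 462 against 4.54 CPM (102, 27.4 to 851) for homozygous ones. Thus 105 of 112 and 102 of 104 of all msgn1 counts of members lay in these cells. vox, a ventral homeobox repressor gene, was 16.3-fold (9.70 to 28.0) and 33.4-fold (12.4 to 126) higher, hes6 13.7-fold (9.66 to 19.5) and 24.8-fold (14.7 to 45.3), and meox1 6.0-fold (4.48 to 8.01) and 4.54-fold (3.44 to 6.02). her1 had 14 of its 14 heterozygous counts and 34 of its 35 homozygous counts there. Presomitic genes were higher in 10 of 16 and 9 of 14 cases, and Hox groups 9 to 13 in 10 of 12 and 8 of 11. hoxd9a differed less, with ratios of 1.61 (1.08 to 2.33) and 1.99 (1.25 to 3.19).

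Of 22 measured vascular genes 12 were lower in the same cells and 0 higher in the heterozygous library. egfl7, an endothelial gene, was at 80.4 against 232 CPM (0.347, 0.204 to 0.556). Endothelial-type cells were 1 of the 18 cells with either gene but 55 of all 151 heterozygous members. The part of this makeup in the lower vascular genes was not tested. etv2 was not among the lower genes, at 165 against 118 CPM (1.41, 0.963 to 2.0, an interval that includes 1). It was found in 10 of the 18 cells, and the richest of them held 11 and 8 UMIs. Of the 14 heterozygous members with an msgn1 UMI 8 also had one of etv2. These 8 included 4 of the 8 msgn1-positive cells with tbx16 or her7, in which the highest count was 11 etv2 UMIs beside 2 of msgn1. The cell with the most msgn1, at 48 UMIs, had 0 of etv2 and 1 of lmo2.

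**Figure D4:**
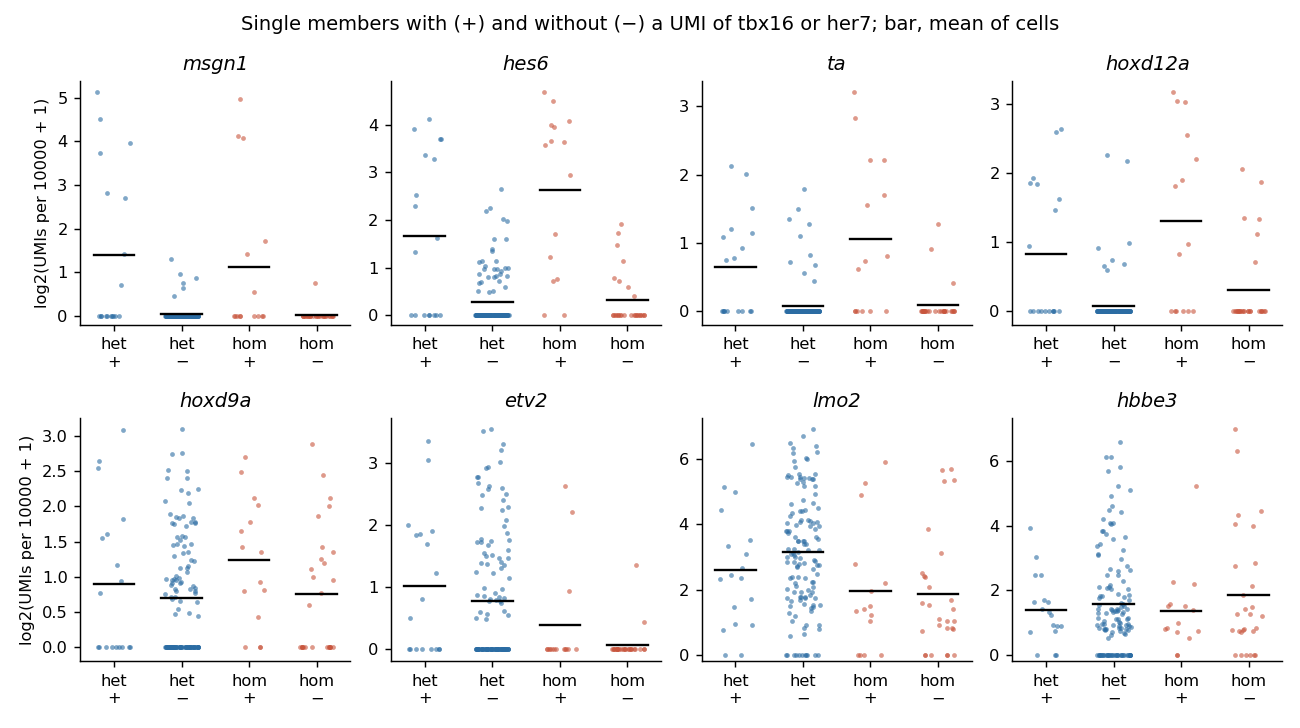
Levels of 8 genes in every single member as log2(UMIs per 10000 + 1), in heterozygous (blue) and homozygous (red) members with (+) and without (−) a UMI of tbx16 or her7, with bars at the mean of cells. msgn1 was found in 14 and 7 members, 8 and 6 of them among the 18 and 15 with either gene, while lmo2 was found in 138 of 151 and 33 of 43 members. The members with lmo2 include epidermal-type ones with 1 or 2 UMIs, and the part of free RNA in such counts was not tested.

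The 55 endothelial-type members of the heterozygous library were compared with the 460 endothelial-type cells outside the gate, a comparison added after the class makeup had been seen. Of 7393 genes 347 (4.69%) were higher and 1041 (14.1%) lower. The vascular cadherin gene cdh5 was at 194 against 231 CPM (0.838, 0.696 to 1.0) and erg, an endothelial ETS gene, at 177 against 202 CPM (0.878, 0.722 to 1.06). etv2 was at 217 against 717 CPM (0.303, 0.256 to 0.356) and lmo2 at 2627 against 4554 CPM (0.577, 0.550 to 0.605), but the rule keeps cells with much tal1 out of the members only. In a comparison chosen after seeing the data, with the 299 endothelial-type other cells below the tal1 limit, etv2 had a ratio of 0.731 (0.611 to 0.870), cdh5 one of 0.651 (0.539 to 0.782) and lmo2 one of 1.76 (1.66 to 1.86), the opposite direction. hoxd10a, hoxb9a and mdm2 had ratios of 21.2, 7.22 and 5.43 there. Against all 460 cells, of 15 Hox genes 12 were higher and 1 lower, with hoxd10a 10.1-fold (5.50 to 19.1) and hoxb9a 5.26-fold (3.27 to 8.43) higher, while hoxd12a had 0 counts in these members and 3 in the other endothelial-type cells. Since the rule chose these members by Hox genes and cdx4, higher Hox ratios are favoured by the choice in both comparisons. mdm2, a ubiquitin ligase gene, was 7.31-fold (4.34 to 12.4) higher. Genes of the erythroid list were higher in 9 of 15 cases and lower in 1, with gata1a at 29.3 against 12.8 CPM (21 and 52 counts) and drl at 209 against 72.8 CPM. The paper found drl enriched in endocardial cells, so among endothelial-type cells it is not particular to blood. These members had a median of 12456 UMIs against 8822.5, and Scrublet marked 1 of the 55. The part of depth or of droplets with more than 1 cell in these differences was not tested.

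Between genotypes, the targeted gene came first. etv2 was at 123 CPM in heterozygous and 18.1 CPM in homozygous members, a ratio of 0.148 (0.0752 to 0.262) on 242 and 12 counts, and at 312 and 14.8 CPM in other kept cells (0.0473, 0.0376 to 0.0588). Of the 12 homozygous counts in members, 7 came from the endothelial-type member. Whether the counted transcript end lies beyond the insertion was not tested. After thinning to 5000 UMIs, 30.4% of heterozygous members (42 of 138, 22.9 to 38.8%) and 2.5% of homozygous members (1 of 40, 0.0633 to 13.2%) had an etv2 UMI, against 46.4% and 11.6% without thinning. In thinned neural- and epidermal-type cells outside the gate, with median depths of 10764 and 8305 UMIs, the heterozygous shares for etv2 were 5.26% and 8.33%. In the homozygous library these were 4.0% and 0% at depths of 15126 and 10030 UMIs, and the thinned homozygous share of etv2 rests on 1 cell.

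Vascular genes were lower in homozygous members and mesodermal genes higher. Over all genes 388 of 5948 (6.52%) were higher and 631 (10.6%) lower in homozygous than in heterozygous members, and in other kept cells 748 of 11389 (6.57%) were higher and 1351 (11.9%) lower. Of 22 vascular genes 0 were higher and 19 lower in members (median 0.135), beside 22 of 24 lower in other cells. egfl7 was at 28.7 against 214 CPM (0.134, 0.0798 to 0.212) and sox7, an endothelial SOX gene, at 25.7 against 186 CPM (0.139, 0.0798 to 0.225). tmem88a, an early hematovascular gene, was at 192 against 182 CPM (1.06, 0.855 to 1.3), while in other cells its ratio was 0.222. Endothelial-type cells were 36.4% of heterozygous and 2.33% of homozygous members. Outside the endothelial and erythroid types 312 of 4050 genes (7.7%) were higher and 332 (8.2%) lower in homozygous members. These members still had less etv2, with 5 counts in 31 homozygous and 78 counts in 73 heterozygous cells (0.138, 0.0435 to 0.336).

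Of the tailbud list 8 of 12 genes were higher and 1 lower in homozygous members, of the presomitic list 10 of 20 higher and 1 lower, and of Hox groups 9 to 13 8 of 13 higher. hes6 was at 305 against 74.2 CPM (4.12, 3.31 to 5.13), meox1 at 377 against 102 CPM (3.70, 3.06 to 4.48), ta at 60.5 against 15.8 CPM (3.84, 2.34 to 6.35) and hoxd12a at 104 against 20.8 CPM (5.01, 3.35 to 7.56). tcf15, of paraxial mesoderm, was 4.75-fold (3.55 to 6.37) higher in members and 4.44-fold in other cells. Cells with tbx16 or her7 were 15 of 43 homozygous and 18 of 151 heterozygous members. Within them 157 of 2004 genes (7.83%) were higher and 96 (4.79%) lower, and the order changed. msgn1 then stood at 462 and 469 CPM (0.984, 0.742 to 1.3) and lmo2 at 959 and 952 CPM (1.01, 0.829 to 1.22). The homozygous lmo2 counts include 79 UMIs of the endothelial-type member, 57 of an erythroid-type one and 48 of an unassigned one. The part of these members in the lmo2 ratio was not tested. hes6 was still 2.04-fold (1.58 to 2.64), meox1 2.01-fold (1.55 to 2.64) and ta 2.43-fold (1.3 to 4.78) higher, and Hox groups 9 to 13 were higher in 1 of 11 cases. The homozygous ta counts include 11 UMIs of the notochord-type member and 10 of an unassigned one. The part of these cells in the ta ratios was not tested. etv2 stayed low at 45.3 against 165 CPM (0.274, 0.121 to 0.561). The endothelial-type homozygous member, in this group through 1 her7 UMI, held 7 of the homozygous etv2 UMIs.

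The genes with the highest ratios between genotypes in members were not segmentation genes. socs3b, an inhibitor of cytokine signalling, was at 180 against 15.8 CPM (11.4, 7.64 to 17.6), prrx1a, a mesenchymal homeobox gene, at 165 against 22.4 CPM (7.37, 5.15 to 10.7) and vcana, a matrix proteoglycan gene, at 63.5 against 8.64 CPM (7.35, 4.1 to 13.8). lsp1, msx1b, egr4, jdp2b and the chemokine gene cxcl12a followed at 6.13-fold to 4.67-fold, and 36 of the 78 egr4 counts came from 1 cell. At the other end krt18, a keratin gene, was at 27.2 against 240 CPM (0.113, 0.0667 to 0.181). Epidermal-type cells were 8 of 151 heterozygous and 0 of 43 homozygous members. The paper also lists krt18 among the top markers of its second endothelial cluster. Endothelial-type cells were 36.4% of heterozygous and 2.33% of homozygous members. Mesenchyme-type cells, whose marker list includes prrx1a and cxcl12a, were 7.28% of heterozygous and 32.6% of homozygous members, and the summed level of the list was 374 and 1232 CPM. The part of this makeup in the ratios was not tested.

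Immediate early genes respond within minutes to stimuli including cell dissociation. Genes of the immediate early and heat shock list were higher in homozygous members in 6 of 11 measured cases and lower in 0. In other kept cells they were higher in 5 of 19 cases and lower in 3. junba was at 313 against 112 CPM (2.80, 2.30 to 3.40) in members with a ratio of 1.78 in other cells, and egr1 at 89.2 against 29.5 CPM (3.03, 2.07 to 4.43) with a ratio of 2.12. Within the members with tbx16 or her7 all 6 measured genes of the list were higher. The part of what raises these genes in the other differences between the libraries was not tested.

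**Figure D5:**
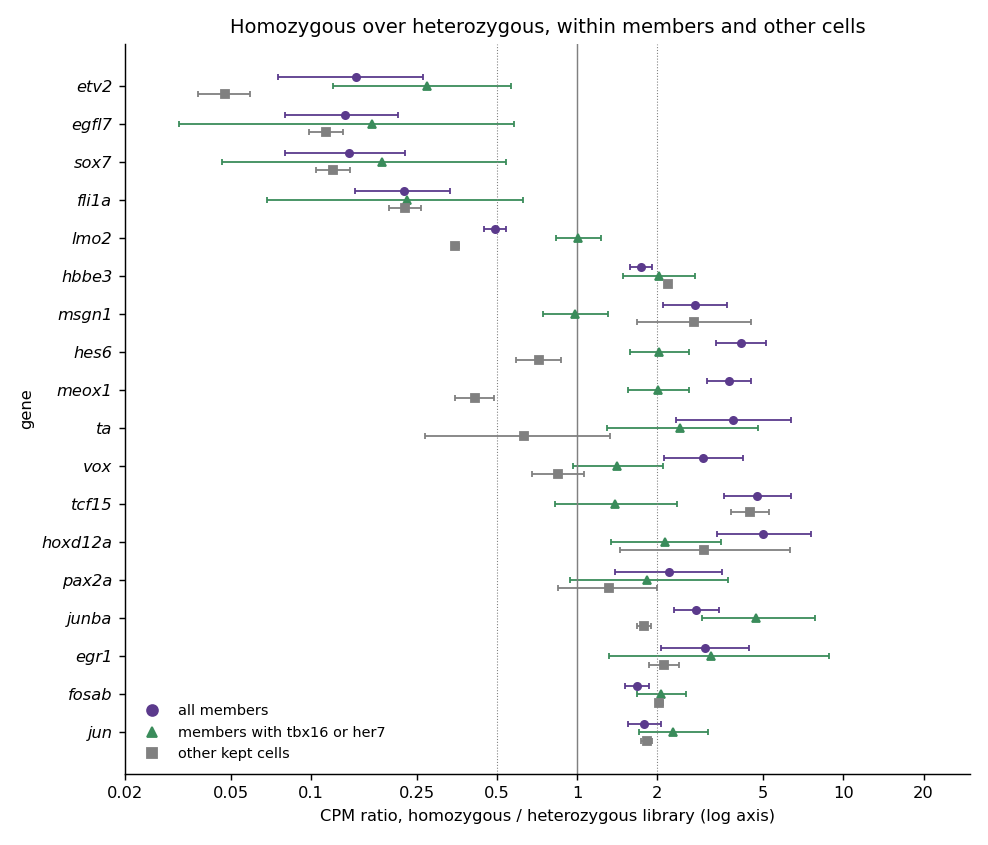
Ratio of CPM in the homozygous over the heterozygous library on a log axis for 18 genes in all members (circles), in members with tbx16 or her7 (triangles) and in other kept cells (squares), with exact 95% counting intervals and dotted lines at 0.5 and 2, for points with at least 20 counts. etv2, egfl7 and sox7 lay below 0.5 in each group, msgn1 was at 2.76 in all members and 0.984 in those with tbx16 or her7, and meox1 was at 3.70 in members against 0.413 in other cells.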

How the data were processed

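The authors aligned reads to the zebrafish assembly zv10 (GRCz10) and counted UMIs with Cell Ranger. The paper and the submitters' processing notes name different versions, 2.0.2 in the latter. The deposited values are raw counts of UMIs per gene and barcode for all barcodes of both libraries, with no cell calling or normalization. Total UMIs were 19256969 (heterozygous) and 7244035 (homozygous).

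Members and gene lists were chosen with earlier results of these data known. CPM were taken from summed counts. Ratios have exact conditional binomial intervals, shares Clopper-Pearson intervals and their differences Newcombe intervals, all at 95%. With 1 library per genotype no count test was possible. A class needed at least 3 detected markers and 2 more than the next class. Empty droplets were barcodes with 1 to 100 UMIs. Clusters used Leiden at resolution 1. Named genes were list genes with at least 20 counts (2 to 4 per list, by count and by ratio) and the 10 highest and lowest ratios with at least 50 counts and a UMI in at least 5 cells; others, including sox2, fgf8a and cluster genes, were picked after values were seen. Scrublet was run at an expected rate of 6%, an alternative chosen after seeing the data. Ratio intervals were tried on simulated Poisson counts, the model that they assume, so the trial cannot show how they hold under variation between cells. Python 3.11.15, numpy 2.4.6, scipy 1.17.1, pandas 2.3.3, scanpy 1.11.5 and matplotlib 3.10.9 were used. 1 gene list and a gene in it are not reported here.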

Additional observations from a re-analysis of the deposited data

Results flagged for a closer look

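ripply2, which acts at forming somite boundaries, lay on opposite sides in the 2 libraries. Its ratio of members over other kept cells was 0.361 (15 counts in members, 0.199 to 0.604) in the heterozygous and 2.12 (23 counts, 1.28 to 3.38) in the homozygous library. For the homozygous over heterozygous contrast, 3 genes went one way in members and the other way in other kept cells. meox1 had ratios of 3.70 in members and 0.413 in other cells. gadd45aa, a growth arrest gene, had 0.213 (2 against 28 counts) and 2.09. hoxc11a had 2.23 and 0.0760, the latter on 1 against 35 counts. With 1 library per genotype the difference was not tested for any of these genes.

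Among barcodes below the UMI limit, which entered no comparison, 8 of 441 heterozygous (1.81%, exact interval 0.786 to 3.54%) and 2 of 115 homozygous ones (1.74%, 0.211 to 6.14%) met the gene rule. Their median depths were 1185 and 947 UMIs over all such barcodes. The homozygous count lies under a floor of 3 counts.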

How the results depend on the processing

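Among the alternatives run, the member share (9.39% heterozygous, 9.09% homozygous) became 2.55% and 5.29% with 3 of 6 genes required, 5.97% and 6.55% on thinned counts, 2.92% and 5.71% without hoxb7a in the rule, and 3.0% and 3.37% without members assigned to another type. Without the tal1 limit the heterozygous share was 11.6%. The similarity of the shares thus did not hold with 3 of 6 genes required or without hoxb7a. The richest cluster held 24.7% of members at resolutions 0.6 and 2. Genes higher in heterozygous members (575) numbered 1052 with 3 of 6 genes, 893 without hoxb7a, 335 without the richest member per gene, 276 at 50 counts, 905 at 10 counts and 223 at 3-fold, and genes lower (1367) 2464, 2387, 2211, 787 and 788 at these settings except 10 counts, and 2672 without members of another type. Genes higher in homozygous members (675) numbered 1090 with 3 of 6 genes, 1020 on thinned counts, 1089 without hoxb7a, 331 without the richest member, 297 at 50 counts, 1071 at 10 counts and 251 at 3-fold, and genes lower (1350) 2349 without members of another type, 2422 without the richest member, 614 at 50 counts and 737 at 3-fold. Between genotypes, genes higher (388) numbered 176 without members of another type, 121 at 50 counts, 744 at 10 counts and 125 at 3-fold, and genes lower (631) 210 with 3 of 6 genes, 258 without hoxb7a, 319 without members of another type, 961 without the richest member, 230 at 50 counts, 1159 at 10 counts and 328 at 3-fold. Fewer cells or a lower count minimum bring in noisier ratios by construction, and the cause of the other shifts was not tested.

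Alternatives chosen after seeing the data were these. With only the members with tbx16 or her7, 1407 genes were higher and 3640 lower in the heterozygous and 1238 higher in the homozygous library, and 157 were higher and 96 lower between genotypes. Without endothelial-type and erythroid-type members 892 genes were higher in heterozygous members and 332 lower between genotypes. Against endothelial-type other cells below the tal1 limit, the lmo2 ratio of endothelial-type members was 1.76 in place of 0.577, and of the 2 settings only that limit differs. On kept cells outside the endothelial-type, the macrophage-type and those with high tal1, the genotype difference in the share with tbx16 or her7 was 0.856 points (-0.934 to 3.03) in place of 2.05. Other ratios that changed side of 1 were those of etv2 in heterozygous members (1.09 without the tal1 limit), fgf24 in homozygous members (0.740 on thinned counts, 0.918 without members of another type, 0.445 without endothelial-type and erythroid-type members), and, with only the members with tbx16 or her7, hand2 (0.317, heterozygous, on 1 count), osr2 (0.847, homozygous), and lmo2 (1.01) and msgn1 (0.984) between genotypes. The causes were not tested. For socs3b between genotypes that setting gave no ratio, since heterozygous counts were 0. No paired analysis was possible because each genotype had 1 library. Depth limits the genes with few counts, and 43 homozygous members limit every comparison between genotypes.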

Other observations

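Skeletal muscle genes differed between the libraries in where they lay. Of 17 measured genes 6 were higher and 3 lower in heterozygous members than in other kept cells, and of 20 in the homozygous library 4 were higher and 12 lower. Over all genes 5.3% were higher and 12.6% lower in the heterozygous library, and 8.08% and 16.2% in the homozygous one. Contractile genes were lower in homozygous members than in other kept cells of that library: actc1b, a muscle actin gene, was at 15.12 against 65.2 CPM (0.232, 0.110 to 0.432), and mylpfa, a fast myosin light chain gene, had 0 counts in members and 45 in other cells. Skeletal muscle-type cells were 2.56% of homozygous and 0.412% of heterozygous other kept cells. The summed level of the muscle class markers was 275 CPM in homozygous members and 254 CPM in other cells. In the heterozygous library these levels were 86.4 and 41.0 CPM. The part of this makeup in the ratios was not tested. myog, a late myogenic factor, was at 71.1 against 56.6 CPM in the homozygous library, with 44 of its 47 member counts in 1 cell.

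Of the immediate early and heat shock list 0 of 19 genes were higher and 6 lower in heterozygous members than in other kept cells, and 0 of 19 were higher and 2 lower in homozygous ones. The proliferation gene mki67 was at 142 against 88.3 CPM (1.61, 1.41 to 1.83) in the heterozygous and at 157 against 138 CPM (1.14, 0.922 to 1.40) in the homozygous library.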
